A study of Mus musculus with 12 samples.

Results

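The subject here is how the poly(A) RNA of Mtr4-null mouse oocytes differed between postnatal day 14, when oocytes are growing, and day 21, when they are germinal vesicle oocytes. The members were all genes whose FPKM, averaged over both Mtr4-null columns of the deposited table, was 1 or more, without symbols that start with Mir, Snor, Scarna or Rnu. They were 11790 of 23235 gene symbols. For each gene the difference was log2(FPKM + 1) at day 21 minus that at day 14, and it is given below relative to the median of all 11790 genes, which was -0.28. A relative difference of 1 is 2-fold above the median gene, and one of -1 is 2-fold below it.

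MTR4 is an RNA helicase that unwinds nuclear RNA and feeds it to the RNA exosome, the complex that degrades RNA from its 3′ end. Its usual substrates include upstream antisense transcripts, many long non-coding RNAs, the spliced RNA of snoRNA host genes and the precursors of small nuclear and nucleolar RNAs. A growing oocyte transcribes and stores maternal mRNA, and transcription falls silent as it completes growth, so a later oocyte depends on what it has kept.

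The labels list 12 libraries in 4 groups of 3, namely wild-type (WT) and Mtr4-null oocytes at day 14 and at day 21, each from 10 pooled oocytes, while the design text speaks of duplicates. RNA was captured with oligo-dT and libraries were made by Smart-seq2, which reads whole transcripts and does not keep the strand. The strain, and the promoter or Cre driver behind the deletion, are not given in the sources used here. The table holds 1 value per gene and group, the authors' mean, so values have no replicate error, no test was possible, and library depths are unknown. The FPKM of a group are relative to the RNA of its libraries, so fewer RNA molecules per oocyte and a shift of composition cannot be told apart. In the Mtr4-null day 21 column 0.108% of the values above 0 ended in repeating 3s or 6s, against 47.2% to 48.9% in the other columns, and among 2211 of its values, those between 10 and 100 that carry 5 decimals, 92.3% ended in 5. Such decimals are what a mean of 2 libraries gives, so fewer libraries than the labels name may stand behind it.

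Skiv2l2, the gene of MTR4, had an FPKM of 27.6 at day 14 and 26.3 at day 21 in WT oocytes, and of 1.57 and 3.86 in Mtr4-null oocytes. Both Mtr4-null values were below both WT values. The 12 oocyte identity markers were all at an FPKM of at least 1 in every group, and their summed FPKM was 25777 at day 14 and 14940 at day 21 in Mtr4-null oocytes and 25642 and 18692 in WT oocytes. Of 15 granulosa cell markers 9 were under an FPKM of 1 in each group. The granulosa markers summed to 219 and 111 in Mtr4-null oocytes, most of it Serpine2, and the 24 markers of theca, stroma, endothelium and blood summed to 17.3 and 6.39.

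Between day 14 and day 21 many more genes moved away from the median gene in Mtr4-null than in WT oocytes. In Mtr4-null oocytes 1662 of the 11790 genes, 14.1%, were at least 2-fold above the median and 1180, 10.0%, were at least 2-fold below it. In WT oocytes the same genes gave 156 above, 1.32%, and 345 below, 2.93%. The SD of the relative differences over genes was 0.96 in Mtr4-null and 0.46 in WT oocytes, and 469 genes against 6 were at least 4-fold above the median. These are counts by size and not tests. Without centring on the median, 1108 genes were 2-fold higher and 2129 were 2-fold lower at day 21 in Mtr4-null oocytes, so the share of higher genes among all 2-fold genes was 58.5% centred and 34.2% not centred. With no minimum FPKM that share was 41.8%. The 11790 genes were chosen by Mtr4-null FPKM, and 1247 of them had a mean WT FPKM under 1, where a 2-fold WT difference is harder to reach. With the minimum set on WT FPKM, 1188 of 11078 genes were above in Mtr4-null and 223 in WT oocytes. Below were 955 and 365.

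**Figure D1:**
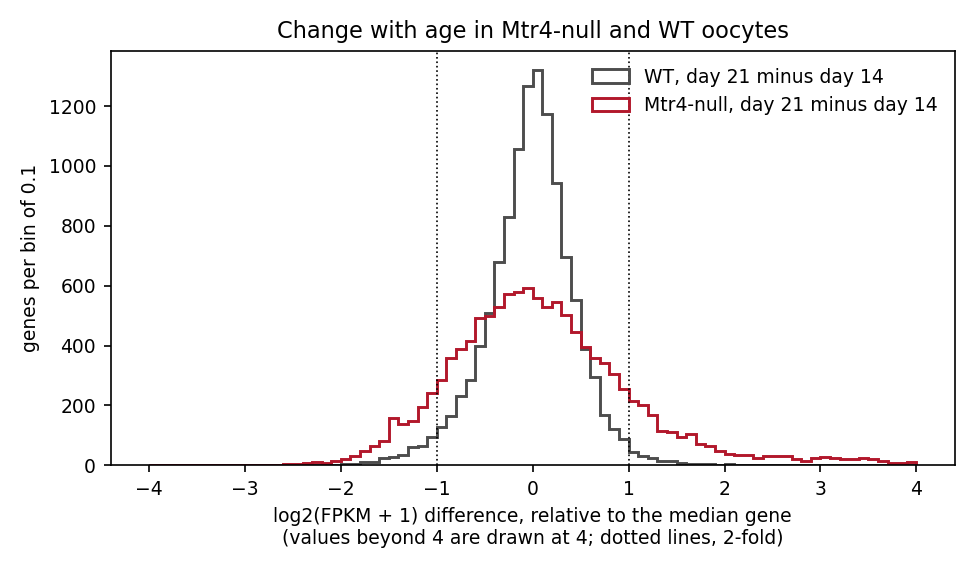
Distribution of the relative log2(FPKM + 1) difference between day 21 and day 14 over 11790 genes, in WT (grey) and Mtr4-null oocytes (red); the x axis is in log2 units, the y axis counts genes per bin of 0.1, and dotted lines mark 2-fold. The Mtr4-null curve is wider on both sides and has a long right arm, where 469 genes lie at least 4-fold above the median against 6 in WT.

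The change with age in Mtr4-null oocytes was not an enlarged form of the WT change. Over genes, the Mtr4-null and WT relative differences had a Pearson r of -0.042 and a Spearman rho of -0.078, as a description over 11790 genes that are not independent replicates. The 156 genes that were 2-fold above the median in WT oocytes had a median relative difference of 1.20 there and 0.19 in Mtr4-null oocytes. In Mtr4-null oocytes 28 of them, 17.9%, were 2-fold above and 14, 8.97%, were 2-fold below. The 345 genes that were 2-fold below in WT oocytes had a median of -1.22 there and 0.25 in Mtr4-null oocytes, where 71, 20.6%, were above and 33, 9.57%, below. The shares below were near the 10.0% of all genes, and those above somewhat over its 14.1%. Subtracting the WT difference from the Mtr4-null difference left 2183 genes, 18.5%, at least 2-fold above and 1621, 13.7%, at least 2-fold below the median.

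Several genes went opposite ways with age in the 2 genotypes. Tomm5, a subunit of the mitochondrial import pore, was at 9.08 and 1.60 FPKM at day 14 and day 21 in WT oocytes and at 26.2 and 125 in the null. Amd2, an adenosylmethionine decarboxylase gene of polyamine synthesis, was at 2.68 and 0.0281 in WT and at 8.45 and 51.1 in the null. 2310040G24Rik, a long non-coding RNA, was at 4.76 and 0.66 in WT and at 0.30 and 10.4 in Mtr4-null oocytes. All 3 were lower at day 21 in WT and higher at day 21 in Mtr4-null oocytes. In the other direction, Spry4, an inhibitor of receptor tyrosine kinase signalling, was at 57.7 and 118 in WT and at 36.3 and 4.82 in the null. 9130015A21Rik, a long non-coding RNA, was at 3.08 and 33.4 in WT and at 2.12 and 0.358 in Mtr4-null oocytes. Emilin2, an extracellular matrix glycoprotein, was at 8.71 and 18.6 in WT and at 10.5 and 1.07 in Mtr4-null oocytes. All 3 were higher at day 21 in WT and lower at day 21 in Mtr4-null oocytes.

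Set against WT oocytes of the same age, the Mtr4-null oocytes had moved further away by day 21. At day 14, 771 genes, 6.54%, were at least 2-fold above WT and 157, 1.33%, were at least 2-fold below, both relative to the median gene. At day 21 these counts were 2942, 25.0%, and 2158, 18.3%. All were counted among the 11790 genes that passed the Mtr4-null minimum, of which 1247 had a mean WT FPKM under 1. Such genes could hardly lie 2-fold below WT, and genes under the Mtr4-null minimum were not counted. The numbers above and below are thus not to be weighed against each other. Of the genes above WT, 725 were so at both ages, which is 94.0% of the day 14 genes and 24.6% of the day 21 genes. Of the genes below WT, 134 were so at both ages, which is 85.4% of the day 14 genes and 6.21% of the day 21 genes. Most of the genes that were 2-fold below WT at day 21 were thus not so at day 14.

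The genes that were 2-fold above the median and those that were 2-fold below it stood at different levels in WT oocytes. The 1662 genes above had a median WT FPKM of 1.81 at day 14, and their Mtr4-null median was 4.40 at day 14 and 14.6 at day 21. Of them, 650 had a mean WT FPKM under 1. Such genes passed the minimum only through the Mtr4-null values, so they could hardly lie below the median and their number is no support. The 1180 genes below had a median FPKM of 24.6 and 24.8 in WT oocytes at day 14 and day 21, and of 22.8 and 6.38 in Mtr4-null oocytes. At day 14 they stood near their WT level, and 3 of them had a mean WT FPKM under 1.

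By RefSeq class, long non-coding RNAs were the large class with the highest median. The 634 long non-coding genes had a median relative difference of 0.85, with 281 at least 2-fold above and 27 at least 2-fold below the median. The 10915 protein-coding genes had a median of -0.037, with 1315 above and 1142 below. A second minimum, a mean WT FPKM of at least 1, was added after the values were seen. It was set on top of the Mtr4-null minimum, so these genes still passed through the compared columns as well. With both, 384 long non-coding genes had a median of 0.44, with 115 above and 27 below. The 9977 coding genes so chosen had a median of -0.11. All long non-coding symbols together held 1.68% and 1.80% of the summed FPKM in WT oocytes, and 2.46% and 6.85% in Mtr4-null oocytes at day 14 and day 21.

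Of 17 nuclear long non-coding RNAs in the table, 9 passed the minimum, with 4 above and 1 below. Of the 5 with a mean WT FPKM of at least 1, 2 were above and 1 below, and the other 4, among them Dleu2, passed only through the Mtr4-null values. Malat1, an abundant RNA of nuclear speckles, was at 9.99 FPKM on day 14 and 83.4 on day 21 in the null and at 3.66 and 2.08 in WT oocytes, a relative difference of 3.22. Dleu2, a host of tumour-suppressive miRNAs, was at 1.91 and 12.8 in Mtr4-null oocytes, and it overlaps Trim13 and Kcnrg on the other strand. Airn, the antisense RNA of the imprinted Igf2r locus, was at 7.72 and 15.2, and since the libraries keep no strand its reads cannot be told from those of Igf2r, which it overlaps. Pvt1, the RNA next to Myc, went the other way, from 9.40 to 1.85. Among the 11790 genes, which leave out short RNA loci, the long non-coding RNA A330069E16Rik was the most abundant of the Mtr4-null day 21 column. It was at 1108 FPKM at day 14 and 9623 at day 21, against 50.2 and 71.0 in WT oocytes.

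Genes that host small nucleolar RNAs (snoRNAs) in their introns and code for no known protein were the highest list of all. SnoRNAs guide the modification of ribosomal RNA, and the spliced RNA of their hosts is short-lived in most cells. Of 21 such genes listed, 12 were in the table and all 12 passed the minimum. The median of these 12 was 2.35, against 0.15 in WT oocytes, and each was at least 2-fold above the median gene. Only 7 had a mean WT FPKM of at least 1, and these were above it too. With the minimum set on WT FPKM these 7 remained, with a median of 2.096. The others, among them Snhg11, passed only through the Mtr4-null values. They could hardly lie below the median gene, so their number above it is no support. Under the 10 alternative settings the median of the list ran from 2.07 to 2.479, with the lowest value where differences were not centred.

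Snhg9 was at 12.6 and 27.6 FPKM in WT oocytes at day 14 and day 21 and at 209 and 1017 in Mtr4-null oocytes. Snhg3 was at 5.32 and 5.85 in WT and at 140 and 693 in Mtr4-null oocytes. Both were high at day 14 already and higher still at day 21, and both overlap coding genes, Rps2 and Rcc1, whose reads could be counted with them. Snhg6 was at 97.0 and 132 in WT and at 93.0 and 247 in Mtr4-null oocytes. Snhg1 was at 19.5 and 18.4 in WT and at 15.8 and 54.5 in Mtr4-null oocytes. Gas5 was at 3.48 and 5.98 in WT and at 5.24 and 21.8 in Mtr4-null oocytes. Snhg6 and Snhg1 were near or below their WT level at day 14 and above it at day 21. Snhg11 had the largest relative difference of the list, 3.41, from 2.53 to 30.03 FPKM, but it was at only 0.105 and 0.433 in WT oocytes. Snhg5 had the smallest, 1.60, from 10.7 to 28.2 in Mtr4-null oocytes.

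**Figure D2:**
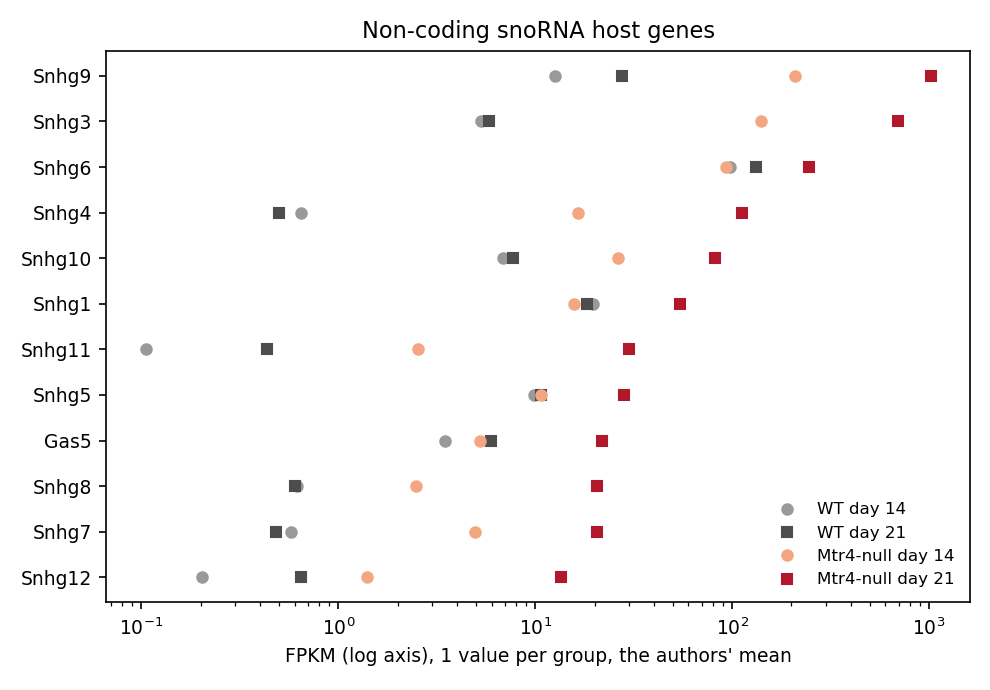
FPKM of the 12 measured non-coding snoRNA host genes on a log axis, with 1 point per group, the authors' mean. The Mtr4-null day 21 value (dark red squares) is the highest of the 4 in each gene, and that of Snhg9 reaches 1017.

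SnoRNA hosts and ribosomal protein genes are known for a 5′ terminal oligopyrimidine tract, a C at the transcription start followed by a run of C and T. A tract was counted where a C followed by at least 4 letters C or T, on the gene's strand, lay within 5 bases before to 10 bases after the RefSeq start. It was found in 6 of the 10 hosts with a start in RefSeq and in 28 of 60 ribosomal protein genes, against 20.2% of 9447 genes with a start. The windows of the 6 hosts are shown because they are from the highest list, with 40 bases before and 20 bases from the RefSeq start on build GRCm38.p6, 5′ to 3′ on the gene's strand, the counted stretch in capitals. In Snhg9 and Snhg10 the run of C and T starts before the bases searched, and only its part within them is in capitals.
Snhg3: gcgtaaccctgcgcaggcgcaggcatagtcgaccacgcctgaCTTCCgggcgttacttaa
Snhg7: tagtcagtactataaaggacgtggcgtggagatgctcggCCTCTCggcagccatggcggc
Snhg8: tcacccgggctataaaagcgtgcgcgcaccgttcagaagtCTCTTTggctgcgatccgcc
Snhg9: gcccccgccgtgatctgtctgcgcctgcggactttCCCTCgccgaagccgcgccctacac
Snhg10: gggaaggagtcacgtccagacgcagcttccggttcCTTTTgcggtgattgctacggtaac
Snhg12: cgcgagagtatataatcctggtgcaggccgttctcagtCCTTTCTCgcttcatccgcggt
They lie at chr4:132353667-132353726 (Snhg3, minus strand), chr2:26640225-26640284 (Snhg7, minus), chr3:123508317-123508376 (Snhg8, minus), chr17:24719946-24720005 (Snhg9, minus), chr12:105032260-105032319 (Snhg10, minus) and chr4:132308638-132308697 (Snhg12, plus). Over all 9447 genes with a start the tract did not go with a higher value, with medians of -0.011 with it and -0.0052 without it. The classes differed. Long non-coding genes had 1.16 with it and 0.82 without it, and ribosomal protein genes 0.57 and 0.71. Coding genes with it had a median relative difference of -0.059 and those without it -0.036, and the hosts had 2.57 with it and 2.08 without it. Of the other motifs searched on both strands of promoter windows, TATAAA was in 8.75% of genes above, 6.74% of genes below and 7.11% of all 8935 coding genes with a window, and CACGTG in 10.9%, 11.5% and 10.5%. GGGCGG was in 56.8%, 61.5% and 63.5%, CCAAT in 36.6%, 39.2% and 40.3%, and TGACGT in 10.5%, 9.94% and 12.2%. GGGCGG had the widest gap, being less frequent in genes above than in all genes, and no test was run. A match in such a window is a description and not a binding site.

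Among genes that were already abundant in Mtr4-null oocytes at day 14, the differences with age fell into 2 humps. Of 4337 genes with an FPKM of at least 20 at day 14, the number per step of 0.5 in relative difference went down from 914 between 0 and 0.5 to 22 between 2 and 2.5, and then up to 59 between 3 and 3.5, before it fell to 3 above 4. The 122 genes at 2.5 or more are described here as a second band, chosen after the values were seen and so given no test. Their median FPKM was 74.3 at day 14 and 578 at day 21 in Mtr4-null oocytes, and 8.22 and 10.5 in WT oocytes. Together they held 2.51% of the summed FPKM of Mtr4-null oocytes at day 14 and 18.2% at day 21, against 0.292% and 0.34% in WT oocytes. FPKM are relative, so a larger share for some genes means a smaller one for the rest.

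The band held 95 coding genes, 18 long non-coding genes and 3 pseudogenes. Long non-coding genes were 14.8% of it and 2.42% of the other 4215 genes with that minimum. Genes that overlap another gene were 46.7% of the band and 43.7% of the others. Nip7, a factor of ribosome assembly, was at 510 and 4602 FPKM in Mtr4-null oocytes against 38.6 and 46.7 in WT oocytes. Churc1, a zinc finger protein gene, was at 377 and 3801 against 22.2 and 29.6, and it overlaps Fntb on the same strand. Dclre1c, which encodes the nuclease Artemis, was at 507 and 3254 against 20.9 and 25.4, and it overlaps Suv39h2 on the other strand. The band also held genes known from other cell types, which were named after their values were seen. Tyr, the tyrosinase of pigment cells, was at 183 and 1464 FPKM in Mtr4-null oocytes against 9.22 and 15.1 in WT oocytes. Cxcr2, a chemokine receptor of neutrophils, was at 134 and 1232 against 7.005 and 9.74. Nanog, a transcription factor of pluripotent cells, was at 91.7 and 615 against 3.23 and 4.67. The deposited values are per gene symbol, so whether such reads come from the whole coding transcript or from a part of the locus was not tested.

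**Figure D3:**
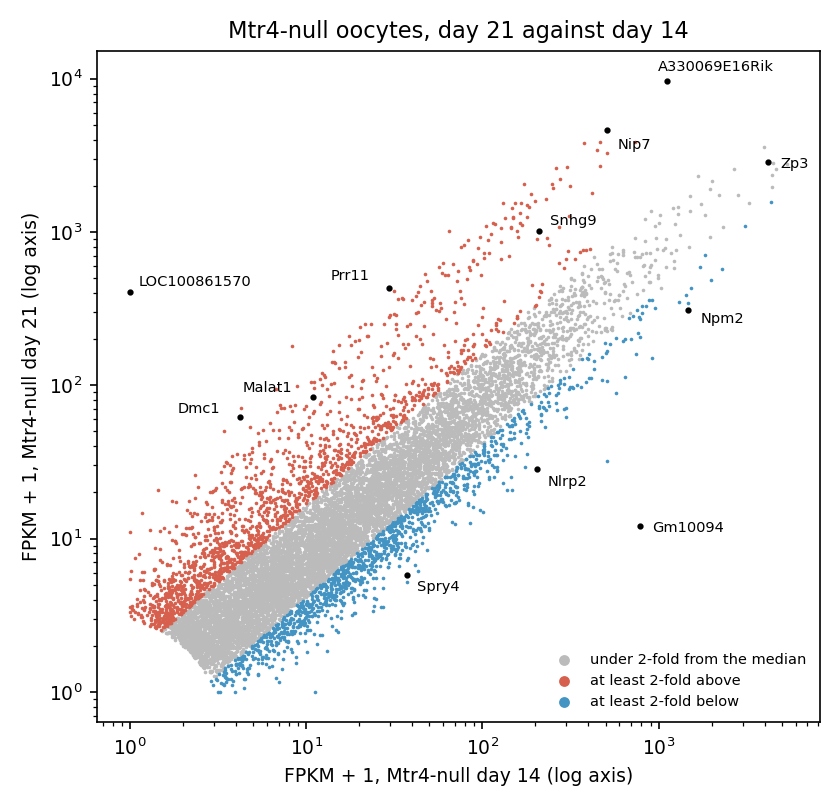
Each point is 1 of 11790 genes, with FPKM + 1 of Mtr4-null oocytes at day 14 on the x axis and at day 21 on the y axis, both on log axes. Red points lie at least 2-fold above and blue points at least 2-fold below the median gene, and a separate upper band runs parallel to the main cloud up to A330069E16Rik at 9623 FPKM.

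Apart from LOC100861570, which was listed at 0 except at day 21 without MTR4, where it stood at 406 FPKM, the largest relative differences lay between 3.84 and 4.72. The long non-coding RNA 2700038G22Rik was at 7.31 and 179 FPKM at day 14 and day 21, a relative difference of 4.72. Dmc1, the recombinase of meiotic prophase, was at 3.20 and 61.1, against 2.31 and 3.72 in WT oocytes. Arrdc3, an arrestin-like adaptor, was at 2.43 and 49.4, against 1.55 and 1.18, and it overlaps 1700023H06Rik on the other strand. Dmc1 and Arrdc3 were near their WT level at day 14. Prr11 was at 28.5 and 428, and Decr2, a reductase of peroxisomal fatty acid oxidation, was at 30.3 and 414, both far above WT at day 14 already. Zfp872 was at 3.28 and 70.4, but it overlaps 1810064F22Rik on the other strand.

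Of the 15 largest differences below the median, the 2 largest were retrocopies whose parent genes went the other way. Gm10094, a copy of Sap18, was at 781 FPKM at day 14 and 11.1 at day 21, while Sap18 itself was at 110 and 970. The sum of the pair was 892 and 981. Gm9846, a copy of Rps27, was at 509 and 31.0, while Rps27 was at 203 and 902, and their sum was 712 and 933. Each sum differed far less than either gene, and how reads were shared between copy and parent was not tested, so the 4 single values are uncertain. Among the other low genes, Nlrp2, a maternal effect gene, was at 203 and 27.3, Crym, a thyroid hormone binding protein, at 25.7 and 2.58, and Anxa6, a membrane-binding annexin, at 23.01 and 2.37. Fam25c was at 10.3 at day 14 and listed at 0 at day 21. In WT oocytes Nlrp2 was at 272 and 191, and Anxa6 at 26.0 and 34.6.

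The counts for the lists that follow can be set beside the 14.1% of all genes above and the 10.0% below the median. A share near these says nothing about a list. Both shares depended on the WT level, and the lists were not matched for it. Of the 1474 genes with the lowest WT FPKM at day 14, 48.4% were above and 0.271% below. Of the 1474 with the highest, 3.46% were above and 17.4% below. For lists of genes abundant in WT oocytes, a share below of up to 17.4% thus says nothing either. For them a share above that is under 14.1% is no sign of fewer higher genes. Maternal effect genes, whose RNA or protein in the egg is needed by the early embryo, were among the lowest lists. The 30 that passed the minimum had a median of -0.65, with 10, 33.3%, at least 2-fold below and 2 at least 2-fold above the median, and the WT median was -0.14. Npm2, the histone chaperone of the egg nucleus, was at 1470 and 309 FPKM in Mtr4-null and at 1527 and 1308 in WT oocytes. Nlrp5, a core protein of the subcortical maternal complex, was at 1305 and 350 in Mtr4-null oocytes, and in WT oocytes it was lower at day 21 as well, at 1224 and 605. Zar1, which binds and stores maternal mRNA, was at 788 and 205 in Mtr4-null oocytes and at 623 and 1151 in WT oocytes. Zar1 thus went opposite ways in the 2 genotypes. Ooep, another protein of the subcortical complex, was at 1514 and 1729, and Dppa3, which protects DNA methylation in the egg, at 1956 and 1901. Wdr77 was above the median, at 0.964 and 9.71, and it overlaps other genes.

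Zona pellucida and secreted factors had a median of -0.56 over 15 genes, with 5 below and none above. Fgf8, which oocytes send to granulosa cells, was at 130 and 22.2 FPKM in Mtr4-null and at 136 and 124 in WT oocytes. Gdf9, the growth factor through which oocytes steer granulosa cells, was at 4409 and 1972 in Mtr4-null and at 4247 and 4054 in WT oocytes. Bmp15, its close relative, was at 1316 and 950, a relative difference of -0.19. Kit, the receptor for stem cell factor, was at 88.1 and 29.7. The zona proteins differed with age in WT oocytes too. Zp2 was at 4628 and 2582 in Mtr4-null and at 4120 and 1982 in WT oocytes, and Zp3 at 4170 and 2866 against 4211 and 2585. Zp1 was at 1828 and 705 against 1911 and 1015.

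The piRNA pathway, which silences transposons in germ cells, had the lowest median of the lists, -0.66 over 23 genes, with 8, 34.8%, below and none above, against a WT median of -0.13. With the minimum set on WT FPKM 4 of 24 were below, with a mean FPKM of at least 5 it was 4 of 20, and with quantile normalization 5 of 23. Tdrd9, an RNA helicase of this pathway, was at 17.2 and 2.17 FPKM in Mtr4-null and at 13.2 and 10.8 in WT oocytes. Tdrd1, a Tudor scaffold, was at 49.5 and 16.1, and Drosha, the nuclease that cuts primary miRNAs and that was kept on this list, at 11.9 and 3.65. Mael was at 59.7 and 55.7, near the median gene.

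DNA repair genes had a median of -0.51 over 83 genes, with 18, 21.7%, below and 5 above, against 0.0022 in WT oocytes. Brca1, a ubiquitin ligase of homologous recombination, was at 7.93 and 1.07 FPKM in Mtr4-null and at 11.7 and 11.9 in WT oocytes. Fanci, Poli and Pola1 were below as well, with relative differences of -1.62, -1.46 and -1.35. Of those above, Dclre1c was in the second band and Pola2, the regulatory subunit of DNA polymerase alpha, was at 57.0 and 320. In the list of meiotic prophase and recombination 3 of 25 genes were below, among them the cohesin subunit Smc1b at 14.8 and 2.90, and 2 were above, among them Dmc1.

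Oocyte transcription factors had a median of -0.29 over 20 genes, with 3 below and none above. Nobox, a homeobox factor needed for follicle growth, was at 503 and 163 FPKM in Mtr4-null and at 665 and 541 in WT oocytes. Lhx8 was at 145 and 54.4, and Nr6a1 at 32.3 and 7.83. Figla, at 192 and 116, and Zfp57, at 951 and 1094, were within 2-fold of the median gene.

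Genes of mRNA storage and decay had 9 of 56 below and 5 above, and a median of -0.29 against 0.16 in WT oocytes. Patl2, a translational repressor of oocytes, was at 175 and 28.2 in Mtr4-null and at 195 and 77.4 in WT oocytes. Cpeb1, which controls the poly(A) tails of stored mRNA, was at 324 and 95.4 in Mtr4-null and at 315 and 322 in WT oocytes. Eif4enif1, which holds the cap-binding protein eIF4E in an inactive state, was at 213 and 63.0 against 226 and 232. Since the libraries were primed on poly(A), a shorter tail and fewer molecules cannot be told apart for these and other stored mRNAs.

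For the machinery of meiotic division the shares below the median were near that of all genes, and few genes were above. Meiotic arrest and resumption had 7 of 48 below, 14.6%, and 1 above, 2.08%. Spindle, kinesin and tubulin genes had 9 of 62 below, 14.5%, and 4 above, 6.45%. Of all genes 10.0% were below and 14.1% above, and of coding genes with a mean WT FPKM of at least 1, 8.67% were above. With the minimum set on WT FPKM 4 of 48 genes of the first list were below. Plk1, the polo kinase, was at 108 and 24.3 FPKM in Mtr4-null and at 116 and 135 in WT oocytes. Mapk3, which encodes the kinase ERK1, was at 214 and 57.3, and the tubulin Tubb6 at 288 and 68.8. Cdk1, the kinase that drives entry into meiosis, was at 63.7 and 69.3, and securin, Pttg1, at 2000 and 2160. Sgol2, the protector of centromeric cohesin, was the 1 gene of the first list above the median, at 81.2 and 493, and it overlaps Kctd18 on the other strand. Of 16 DNA methylation genes 3 were below, namely Dnmt3a at 14.9 and 2.82, Uhrf1 at 230 and 67.9 and Dnmt1 at 289 and 100.3 FPKM, and 1, Uhrf2, was above.

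Lipid and steroid metabolism had 9 of 33 genes below and none above. Dgat2, which makes triglycerides, was at 27.7 and 6.82 FPKM, and Fdft1, the first enzyme that commits to sterol synthesis, at 227 and 83.8. Cell volume and ion transport genes stayed near the median gene. Of these 30, none was above and 1, the sodium pump subunit Atp1b1, was below, at 16.1 and 5.18, and their median was -0.11.

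Genes for the proteins of the cytosolic ribosome had a median above that of all genes, while other genes of protein synthesis did not go one way. The 81 cytosolic ribosomal protein genes had a median of 0.57, with 17, 20.99%, at least 2-fold above and none below, and a WT median of 0.050. The count above was lower under 3 settings, 11 with no minimum FPKM, 8 with quantile normalization and 7 not centred, the last with 1 below. Rpl27 was at 190 and 448 FPKM in Mtr4-null and at 192 and 193 in WT oocytes, and Rpl35a at 296 and 669 against 337 and 370. Rpsa was the lowest, at 83.8 and 39.8. Not centred, the median of the list was 0.29, so the typical ribosomal protein RNA was a little higher in FPKM as well. Many of these genes have processed copies that can share reads, as Rps27 does. The 76 mitochondrial ribosomal protein genes had a median of 0.24, with 11, 14.5%, above and 2 below. All 76 had a mean WT FPKM of at least 1. Of coding genes with that WT minimum 8.67% were above, against 14.1% of all genes. Mrpl51 was at 68.6 and 346, and Mrpl43, which overlaps Twnk on the other strand, at 71.1 and 478. With the minimum set on WT FPKM 17 were above, and not centred the median of that list was -0.041. The 56 translation factors had a median of -0.20, with 3 above and 5 below, both shares at or under those of all genes. Eef2k, the kinase that inhibits elongation, was at 43.4 and 10.5 FPKM, and Eef1b2, an elongation factor subunit, at 46.5 and 102.

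Replication-dependent histone genes, whose mRNA normally ends in a stem-loop without a poly(A) tail, had 10 of the 31 that passed above and 2 below. Of the 18 of these with a mean WT FPKM of at least 1, 3 were above and 1 below. Hist4h4 was at 7.56 and 56.9 FPKM in Mtr4-null and at 1.38 and 1.23 in WT oocytes, and Hist1h4d at 2.83 and 27.9 against 1.28 and 1.88. Hist1h2bc, the most abundant, was at 212 and 233 against 257 and 220. Histone genes are near-identical copies, so their single values are uncertain.

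Genes that mark the burst of transcription in the two-cell embryo had a median of 1.53 over 13 genes of 27 in the table, with 9 above and none below, and the WT median was -0.13. With the minimum set on WT FPKM, 5 of 7 were above. The Zscan4 cluster encodes near-identical zinc finger proteins. Zscan4d was at 11.8 and 30.6 FPKM in Mtr4-null and at 5.49 and 4.39 in WT oocytes. Zscan4c was at 4.50 and 17.2 against 1.37 and 0.804, and Zscan4f at 1.90 and 15.1 against 0.647 and 0.799. Eif1a was at 30.03 and 60.8 in Mtr4-null and at 19.1 and 4.81 in WT oocytes, opposite ways in the 2 genotypes. Sp110 was the lowest of the list, at 468 and 222.

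The machinery in which MTR4 works did not go one way. Of 15 exosome subunits and cofactors 3 were above and 1 was below, and the median was -0.22. Exosc2, a cap subunit, was at 233 and 913 FPKM in Mtr4-null and at 23.8 and 20.9 in WT oocytes, and Exosc6 at 3.28 and 19.98 against 2.27 and 2.34. Exosc3 was at 53.04 and 88.3. Exosc10, a nuclear catalytic subunit, was at 17.5 and 9.99, and Dis3l, the catalytic subunit of the cytoplasmic exosome, at 30.04 and 10.2. Of 17 genes on the list of MTR4 adaptors and cap binding, 2 were above and none below. These were Pabpn1 at 10.5 and 18.8, and Wdr61, which was kept on this list, at 80.9 and 198. Zcchc8, the MTR4 partner in the nuclear exosome targeting complex, was at 46.1 and 37.9.

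Zfp zinc finger genes had 58 of 287, 20.2%, above and 22 below, with a median of 0.18 against -0.18 in WT oocytes. With the minimum set on WT FPKM the counts were 46 and 19 of 260. Not centred they were 36 and 40 of 287, and the median was -0.099. Of 42 mRNA export and nuclear pore genes 4 were above and 4 below, among them the pore protein Nup214 at 40.4 and 5.72 FPKM and the exportin Xpo5 at 17.9 and 2.26. Of 38 aminoacyl-tRNA synthetases 6 were above and 6 below, with a median of -0.26. Those below included Iars, at 84.0 and 11.7, and those above included the mitochondrial enzymes Wars2, Hars2 and Mars2. In the list of p53 targets and cell death 7 of 31 were above and 2 below, with Bax at 9.62 and 23.4, but its median of 0.020 changed sign under 5 of the 10 alternative settings.

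**Figure D4:**
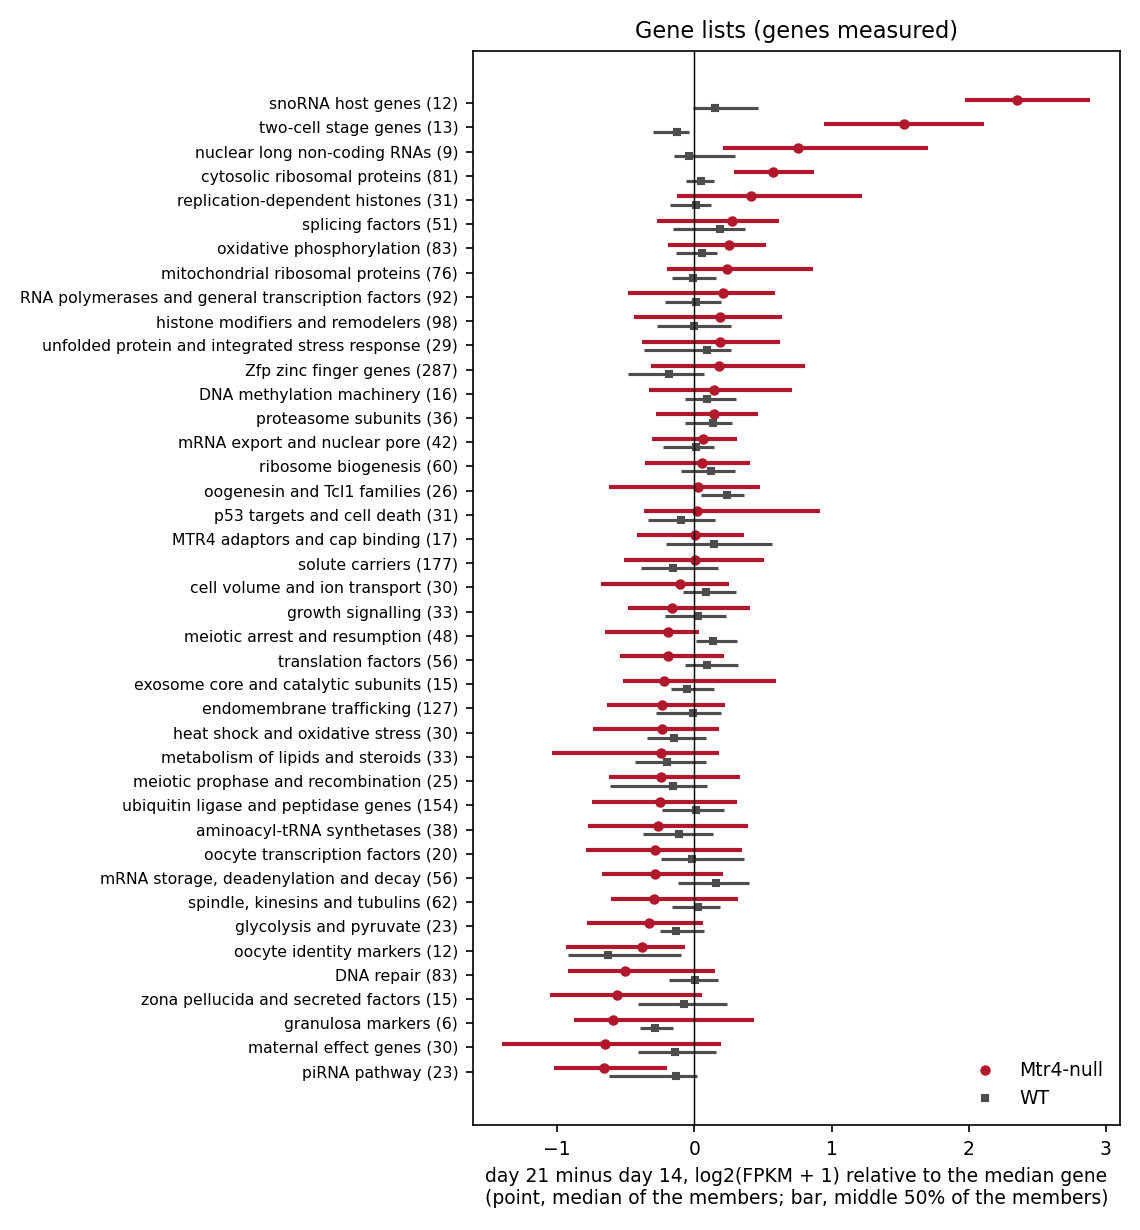
Median (point) and middle 50% (bar) of the relative log2(FPKM + 1) difference between day 21 and day 14 for each gene list with at least 5 measured genes, in Mtr4-null (red) and WT oocytes (grey), with the number of genes in brackets. SnoRNA hosts stand highest at 2.35 and the piRNA pathway lowest at -0.66, while the WT medians lie between -0.29 and 0.24 except for the oocyte identity markers at -0.63.

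The Mtr4-null change with age also varied with gene structure, taken from GENCODE vM21 for the transcript with most exonic bases. Coding genes with 2 or 3 exons had a median relative difference of 0.27 and those with over 20 exons -0.33. Since genes with a low WT level passed the minimum through the Mtr4-null values, the comparison was repeated within 3 equal groups of genes by WT FPKM at day 14. In the highest group, with a WT FPKM of 23.02 or more, genes with 1 to 3 exons had a median of 0.032, with 59 of 853 above and 74 below. Genes with 4 to 12 exons had -0.21, with 84 of 2101 above and 319 below. Genes with over 12 exons had -0.67, with 7 of 679 above and 208, 30.6%, below. The WT medians of the same 3 sets were all between 0.0145 and 0.0327, so no such gradient was seen with age in WT oocytes in this group. In the other groups the WT medians went up with exon number. They went from -0.081 to 0.080 in the middle group and from -0.12 to 0.027 in the lowest.

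Exon number goes with transcript length, so both were crossed within that highest group. In genes with a short exonic length, up to 3163 bases, the median went from 0.21 with 1 to 3 exons to -0.11 with 4 to 12 and -0.65 with over 12. In genes of middle length it went from -0.016 to -0.24 and -0.58, and in genes with a long one, from 5735 bases, from -0.37 to -0.55 and -0.73. Genes with more exons were lower at each length. Longer genes were lower among those with 1 to 3 and 4 to 12 exons, while among those with over 12 exons the genes of middle length were the highest, with 84 genes in the short set. RNA integrity and read coverage along the transcript are not in the table, and their part was not tested. Across 20 chromosomes the median for coding genes lay between -0.11 on chromosome 5 and 0.031 on chromosome X, and genes that overlap another gene had -0.061 against -0.014 for those that do not.

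**Figure D5:**
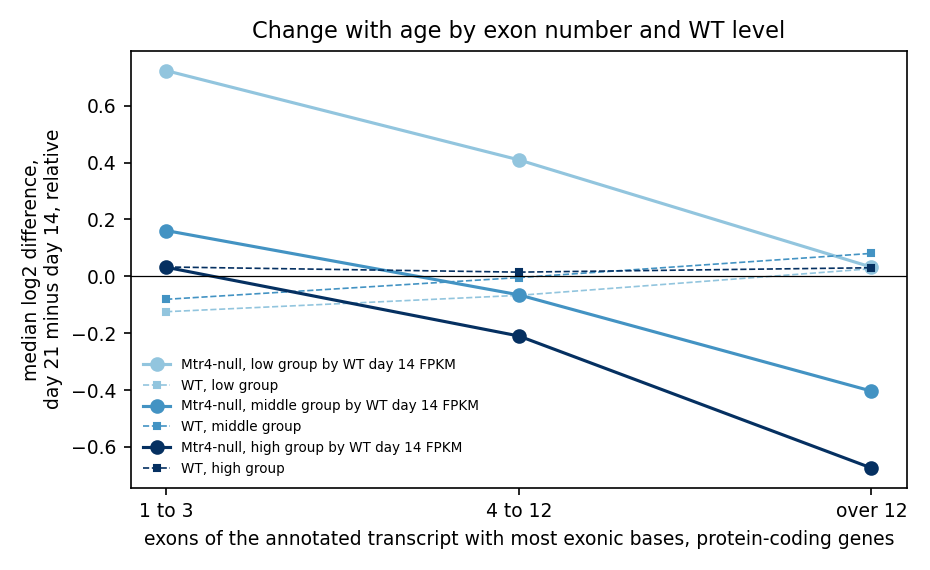
Median relative log2(FPKM + 1) difference between day 21 and day 14 of protein-coding genes, by exon number (x axis) and by group of WT FPKM at day 14 (shade), for Mtr4-null (solid lines) and WT oocytes (dashed lines). Each solid line goes down with exon number, from 0.032 to -0.67 in the highest group. The dashed lines stay between -0.12 and 0.080, and those of the middle and lowest groups go up with exon number.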

How the data were processed

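The authors deposited FPKM (fragments per transcript length and library size) as 1 mean per group. TopHat2 2.1.1, Cufflinks 2.2.1 and build mm9 are named per the submitters' processing notes, with no role or order. ERCC RNA was added per the labels' protocols, and the table has 0 ERCC rows. With 1 value per group, differences of log2(FPKM + 1) were centred on their median, and 2-fold is a rule of size. The members and the 42 gene lists were chosen with earlier results of these data known, and some genes are on several lists.

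Named were Skiv2l2, the 15 largest differences in each direction and the 8 largest departures from the WT change in each direction (FPKM of at least 5), the 8 most abundant genes per Mtr4-null column, and 2 to 4 genes per list. Other genes were named after their values were seen, as list members that show its range. Symbols turned into dates (25) were not named.

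Classes and promoters came from RefSeq (GRCm38.p6), matching 11689 genes, 1228 by synonym, and exons from GENCODE vM21, matching 11618. The authors' build was mm9, so the files' positions are not used. Of 198 genes named by the rule 81 overlap another gene. The counting was checked on simulated data. Python 3.11.15 and pandas 2.3.3 were used.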

Additional observations from a re-analysis of the deposited data

Results flagged for a closer look

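The 734 short RNA loci that were left out (symbols starting with Mir, Snor, Scarna or Rnu) held a signal above that of the WT oocytes. Their summed FPKM was 86288.7 in Mtr4-null oocytes at day 21, 13.3% of the summed FPKM of that group, and 30523 or 5.12% at day 14. In WT oocytes it was 12552 and 11915. An FPKM is divided by transcript length, so very short loci weigh heavily in such a sum. In Mtr4-null oocytes 123 of the loci were above 0 at day 14 and 100 at day 21.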

How the results depend on the processing

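No paired analysis was possible because the table holds 1 mean per group, and for the same reason no library could be left out. The counts moved by more than 1.5 times under few settings. With no minimum FPKM, 1858 genes were 2-fold below the median in Mtr4-null oocytes, and not centred 2129. In WT oocytes the genes above were 335 with a pseudocount of 0.1, 69 with a mean FPKM of at least 5 and 244 with no minimum, and those below were 810 with a pseudocount of 0.1. For the Mtr4-null minus the WT difference, the genes below were 1062 with a mean FPKM of at least 5 and 2473 not centred. Of the 30 largest Mtr4-null differences, all that a setting measured stayed past 2-fold in the same direction, 25 of 25 with an FPKM of at least 1 in both columns, 26 of 26 with the minimum on WT FPKM and 30 of 30 in the others. That last minimum was chosen after the data were seen. With no minimum FPKM the median of all genes, on which values are centred, was -0.079 in place of -0.28. There the medians of the MTR4 adaptor, proteasome, mRNA export, DNA methylation, unfolded protein and ribosome biogenesis lists changed sign. So did those of the oogenesin, p53, granulosa and theca lists. The MTR4 adaptor and mRNA export lists kept the same genes, so their medians moved by the centring alone, while other lists gained genes. Not centred, all medians are lower by 0.28, and those of the MTR4 adaptor, mitochondrial ribosome, oxidative phosphorylation, proteasome, splicing, mRNA export, RNA polymerase, DNA methylation, histone modifier, unfolded protein, p53, solute carrier, Zfp, ribosome biogenesis and oogenesin lists turned negative. Depth is unknown, and low FPKM are understated by the pseudocount.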
